A study of Mus musculus with 32 samples.

Results

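The guanylate-binding proteins (GBPs) are a family of large GTPases, and their transcripts were followed here in bone marrow-derived macrophages (BMDMs) in which the exonuclease gene Trex1 was deleted in culture. The members were the rows of the deposited gene table that carry the symbols Gbp2, Gbp2b, Gbp3, Gbp4, Gbp5, Gbp6, Gbp7, Gbp8, Gbp9 and Gbp10, which are 10 of 54281 rows. All 10 passed the filter on low counts and were among the 15257 genes tested. The rows were picked by these names, but the family was chosen with earlier results of these data known.

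Marrow cells of Trex1 FL/FL mice and of Trex1 WT/FL control mice, both described by the study as R26-CreERT2, were differentiated with L929-conditioned medium, which provides the macrophage growth factor M-CSF. Cre-ERT2 is a recombinase that is made from the ubiquitous Rosa26 locus and enters the nucleus only with 4-hydroxytamoxifen (4-OHT), which was given at 2 µg/ml for 22 h. Cells of each genotype, exposed to 4-OHT or left untreated, were sequenced 1, 2, 3 and 4 days after the exposure, which gave 16 groups of 2 libraries and 32 libraries in all. Both genotypes therefore carry a floxed allele, and 4-OHT-treated Trex1 WT/FL cells lose 1 of their Trex1 alleles while the treated Trex1 FL/FL cells lose both. Age and sex of the mice, and whether the libraries of a group came from separate animals, were not given in the sources used here, so p-values measure the spread between these libraries only.

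GBPs are related to dynamins and are among the transcripts that macrophages raise most strongly when they sense interferons (IFNs). Type I IFN acts on genes through the interferon-stimulated response element (ISRE), and IFN-γ acts through the gamma-activated site (GAS). The proteins assemble on the membranes of pathogens and of the vacuoles around them and promote inflammasome activation. In the mouse the genes lie in a cluster on chromosome 3 and another on chromosome 5.

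In GRCm39 the members on chromosome 3 all lie on the plus strand, in the order Gbp5 (chr3:142199739-142228105), Gbp7 (chr3:142236044-142255910), Gbp3 (chr3:142265731-142278979), Gbp2b (chr3:142300602-142324940) and Gbp2 (chr3:142326349-142343779). The members on chromosome 5 all lie on the minus strand, as Gbp8 (chr5:105162016-105287452), Gbp9 (chr5:105224332-105287452), Gbp4 (chr5:105263633-105287609), Gbp10 (chr5:105362773-105412666) and Gbp6 (chr5:105418568-105443751). The annotated spans of Gbp8, Gbp9 and Gbp4 overlap each other. Coding sequences within the chromosome 5 cluster were 90.7 to 98.4% identical (median 91.7%, 10 pairs), against 72.3 to 83.7% within chromosome 3 (median 74.3%, 10 pairs) and a median of 74.2% between the clusters (25 pairs).

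Promoter windows of RefSeq (GRCm38.p6, from 250 bases before to 50 bases after the annotated start) were available only for the 5 members of chromosome 3. Each of these 5 genes held the ISRE core GAAANNGAAA on at least 1 strand of a window, a motif found on either strand in 3.44% of 32851 windows. Capitals mark the core, which in every case reads from the minus strand, and the stretches are written 5′ to 3′ on the plus strand of the gene.
Gbp5 (chr3:142496754-142496793): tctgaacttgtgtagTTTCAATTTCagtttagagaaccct
Gbp7 (chr3:142530268-142530307): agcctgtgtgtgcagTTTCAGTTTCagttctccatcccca
Gbp3 (chr3:142559984-142560029): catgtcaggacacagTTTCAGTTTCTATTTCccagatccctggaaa
Gbp2b (chr3:142594695-142594734): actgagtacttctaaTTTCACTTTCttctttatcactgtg
Gbp2 (chr3:142620589-142620628): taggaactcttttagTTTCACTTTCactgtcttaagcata

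In Gbp3 there were 2 overlapping cores, and its other annotated start had none. The GAS core TTCNNNGAA, which is the same on both strands and was in 8.3% of all windows, was found at 2 positions in Gbp5 and at 2 in Gbp7. Both motifs together were in 0.454% of all windows. A match describes these letters and is not evidence that a factor binds there.

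**Figure D1:**
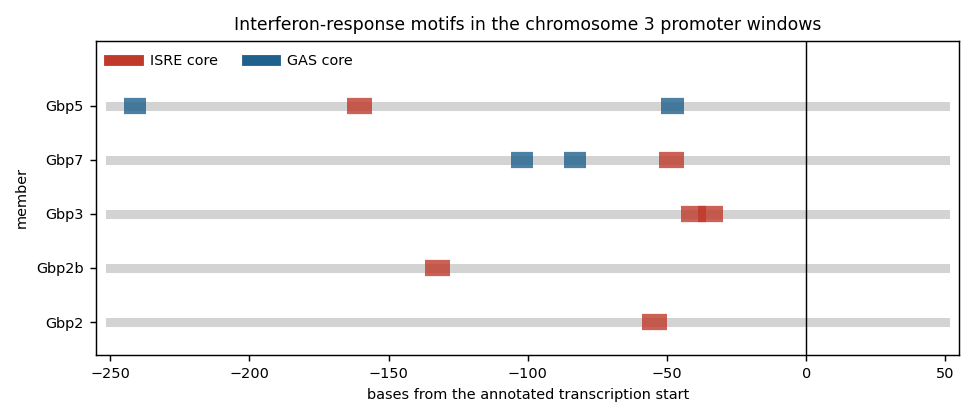
Position of ISRE cores (red) and GAS cores (blue) in the RefSeq promoter windows of the 5 chromosome 3 members; the x axis gives bases from the annotated transcription start and the grey bars the 300 bases searched. Each gene has an ISRE core upstream of its start, and Gbp5 and Gbp7 have 2 GAS cores each.

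The members also differ in how their proteins end. A CaaX box, a cysteine at the fourth position from the end, is the signal for a lipid anchor, and it is known for Gbp2, Gbp2b and Gbp5. The last 30 coding bases of the annotated transcripts (GENCODE vM39, GRCm39) are given for these 3 members, with the cysteine codon in capitals, and for Gbp6 as a member without it.
Gbp5: cgtagacatcatcatgacTGTgttataagc
Gbp2b: atgcctccacctcgatcaTGCaccatactt
Gbp2: aacaaatcgtctgggaagTGCactatactc
Gbp6: cattaccttgtccgttatctaaagcattta

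The ends of Gbp6 and Gbp10 were identical in these bases, and the coding sequences of the pair were 98.4% identical. Of the 31-base words in the transcripts of Gbp10, 67.8% also occur in Gbp6, and of those of Gbp6, 58.1% occur in the predicted gene Gm43302, whose coding sequence is 99.9% identical to that of Gbp6. The split of reads between Gbp6, Gbp10 and Gm43302 is therefore uncertain. Shared words made up 24.9% for Gbp8, 18% for Gbp7 and between 4.14% and 13.8% for the others. Gm43302 itself held counts in 4 libraries only, at most 53.

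Totals ranged from 35120505 to 63760884 counts per library, with a median of 44841991. Trex1 was at 0 in 6 of the 8 libraries of 4-OHT-treated Trex1 FL/FL cells and at 14 and 9 counts in those of day 2, whereas it held 758 to 3622 counts in 4-OHT-treated Trex1 WT/FL cells and at least 1174 in every untreated library. The 8 macrophage markers summed to between 15284 and 48655 CPM (counts scaled to library size by TMM) and each was detected in every library. Their sum, in which Lyz2 alone reached 33994 CPM, rose from day 1 to day 3 in all 4 arms, together with the members described here. The part of this rise in the results was not tested. Of the T and NK cell markers, Cd8a, Ncr1 and Prf1 were at 0 throughout and Cd4 alone reached 52.9 CPM, while B cell markers summed to at most 0.173 CPM. In bulk RNA, fewer cells with a transcript and less transcript per cell cannot be told apart.

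The levels of the members differed widely. In 4-OHT-treated Trex1 FL/FL cells of day 2, where Gbp2 was highest, the level per kb of exon sequence was 149 CPM per kb for Gbp2, followed by 55.6 for Gbp3, 46.9 for Gbp7 and 35.3 for Gbp6. Gbp5 with 17.4 and Gbp9 with 16.7 CPM per kb did not differ beyond their spread. Gbp4 with 3.94 and Gbp8 with 1.97 CPM per kb were lower, and Gbp10 with 0.173 and Gbp2b with 0.112 overlapped at the lower end. With the mean transcript length in place of the joined exons, Gbp2 and Gbp3 were still first and second, and Gbp9 rose to 53.1 CPM per kb, level with Gbp7.

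Gbp2b, the gene once named Gbp1, was at 0 in all 8 libraries of day 1 and reached at most 35 counts, and at this depth it was called in no comparison of genotypes or treatments on a day. Gbp10 held at most 2 counts on day 1 and at most 224 on later days. The other 8 members held more than 3 counts in every library, and medians given below are over these 8.

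**Figure D2:**
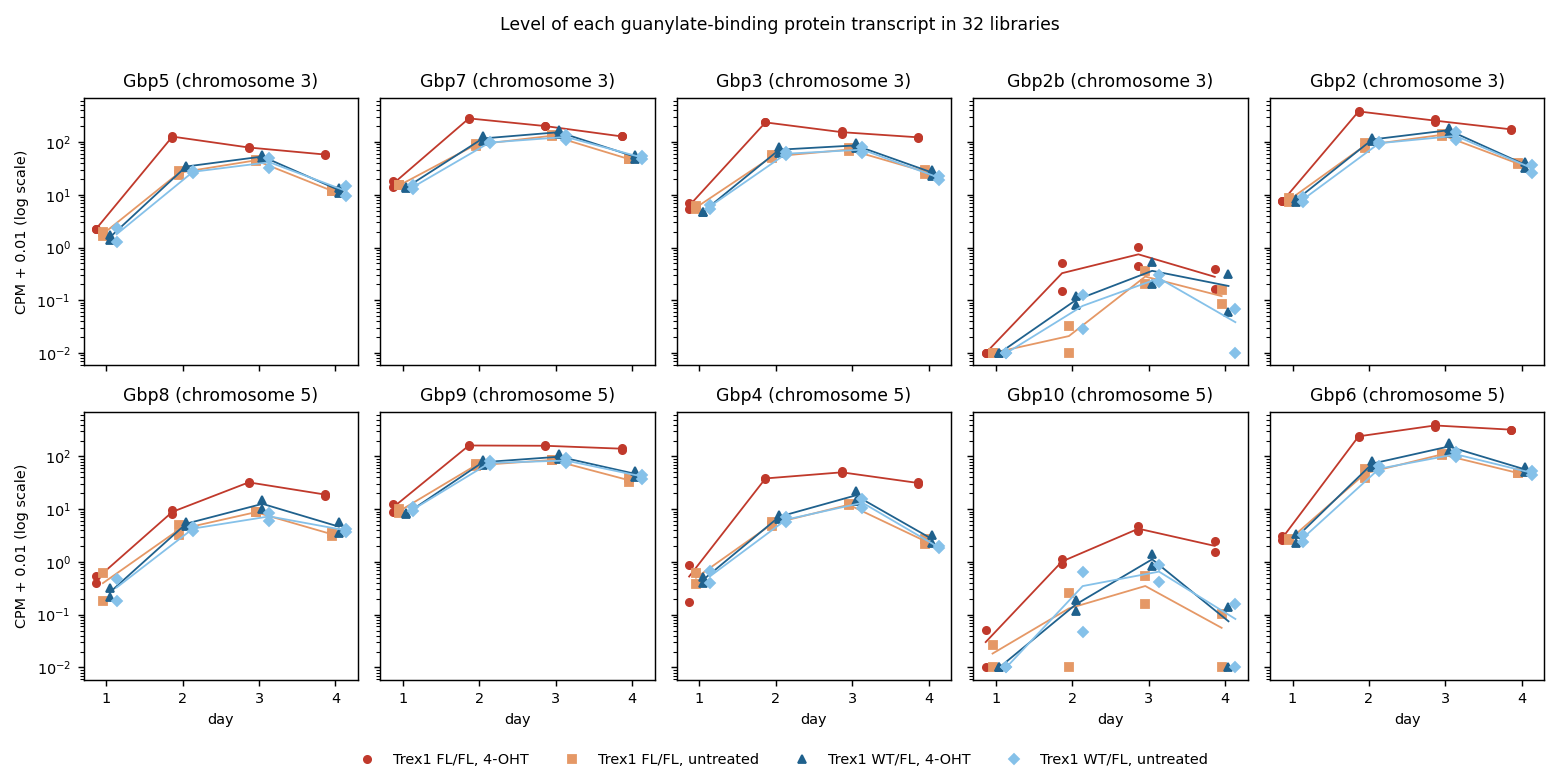
Level of each member in every library, as CPM + 0.01 on a log axis, against the day after 4-OHT; points are libraries, lines join the means of 2 libraries, and colors stand for the 4 arms. All arms start low on day 1, and the 4-OHT-treated Trex1 FL/FL libraries (red) lie above the other arms from day 2 on for most members.

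From day 1 to day 2 the 8 members rose in each of the 4 arms, those without 4-OHT included. In untreated Trex1 WT/FL cells Gbp2 went from 8.9 and 7.35 CPM to 99.5 and 90.6 CPM, and Gbp6 from 3.27 and 2.36 to 64.5 and 52.3 CPM. The libraries of the 2 days did not overlap for either gene. The median log2 change of the 8 members was 3.57 in this arm, 3.41 in untreated Trex1 FL/FL cells, 3.96 in 4-OHT-treated Trex1 WT/FL cells and 5.46 in 4-OHT-treated Trex1 FL/FL cells, whereas the median over all genes tested was within 0.01 of 0 in each.

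A gene was called when its adjusted p in edgeR's quasi-likelihood test was below 0.01 and its log2 fold change beyond 1.5 in either direction. By this rule 8 of 10 members rose from day 1 to day 2 in untreated Trex1 WT/FL cells, where 3.35% of all genes did, 8 in untreated Trex1 FL/FL cells (3.34% of all genes), 8 in 4-OHT-treated Trex1 WT/FL cells (3.32%) and 10 in 4-OHT-treated Trex1 FL/FL cells (4.37%). Gbp6 had the largest change of the 8 members in each arm, with log2 values of 4.37 ± 0.26 (SE) in untreated Trex1 WT/FL cells and 6.41 ± 0.262 in the Trex1 FL/FL cells given 4-OHT. Gbp7 and Gbp9 had the smallest, and their log2 change was between 2.55 and 4.14.

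From day 2 to day 3 the arms differed in the direction of change for some members. In the 3 control arms, the untreated cells of both genotypes and the 4-OHT-treated Trex1 WT/FL cells, all 8 members had higher levels on day 3, by a median log2 change of 0.53 to 0.71. None of these steps of the 8 members passed the fold threshold. At low counts, Gbp2b in the 3 arms and Gbp10 in 4-OHT-treated Trex1 WT/FL cells passed it, but their adjusted p was not below 0.01. Called higher were 0 of 10 members, against 1.7% of all genes in untreated Trex1 WT/FL cells. The share was 1.72% in untreated Trex1 FL/FL cells and 1.85% in 4-OHT-treated Trex1 WT/FL cells. At an unadjusted p below 0.05, there were 6, 9 and 8 members, respectively, at a limit that 51, 52.2 and 51.6% of all genes passed in either direction.

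In 4-OHT-treated Trex1 FL/FL cells the 4 measurable members on chromosome 3 were lower on day 3 than on day 2. Gbp2, which coats pathogen vacuoles and bacteria and supports inflammasome activation there, went from 378 and 384 CPM to 269 and 241 CPM (log2 change -0.58 ± 0.169, adjusted p = 0.00952). Gbp5, known for promoting NLRP3 inflammasome assembly, went from 122 and 132 to 79.7 and 78.1 CPM (-0.68 ± 0.18, adjusted p = 0.00459). For Gbp3 the log2 change was -0.61 and for Gbp7 -0.48. The libraries of day 2 and day 3 did not overlap for any of these 4 genes, although the changes were below the fold threshold.

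Members on chromosome 5 did not share this decline. Gbp6 went from 238 and 242 CPM on day 2 to 404 and 368 CPM on day 3 (log2 change 0.69 ± 0.187, adjusted p = 0.00629). Gbp8 went from 8.12 and 9.63 to 32.4 and 31.9 CPM (1.86 ± 0.288, adjusted p = 2.08e-05) and was the only member called in this step, against 1.28% of all genes called higher. Gbp4 with a log2 change of 0.38 ± 0.264 and Gbp9 with -0.01 ± 0.154 did not pass a test. Gbp10 had 37 and 40 counts on day 2 and 160 and 224 on day 3, and its change did not pass the test (adjusted p = 0.125).

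Summed over each cluster, the chromosome 3 members fell by 0.57 on the log2 scale between these days (SE 0.148, adjusted p = 0.00412), and the chromosome 5 members rose by 0.49 (SE 0.173, adjusted p = 0.0288). In 4-OHT-treated Trex1 WT/FL cells the corresponding changes were 0.47 and 0.80. The ratio of the chromosome 5 to the chromosome 3 sum in 4-OHT-treated Trex1 FL/FL cells was 0.443 and 0.433 in the libraries of day 2 and 0.904 and 0.93 in those of day 3. In 4-OHT-treated Trex1 WT/FL cells it was 0.497 and 0.476 on day 2 and 0.578 and 0.647 on day 3, so that the genotypes did not overlap on day 3. On day 4 the ratio had increased in all arms, to 1.05 and 1.08 in Trex1 FL/FL cells given 4-OHT and to between 0.699 and 0.878 in the 6 control libraries. Gbp6 made up more than any other gene of the chromosome 5 sum in 4-OHT-treated Trex1 FL/FL cells from day 2 on, and the ratio is given as a description with no test.

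**Figure D3:**
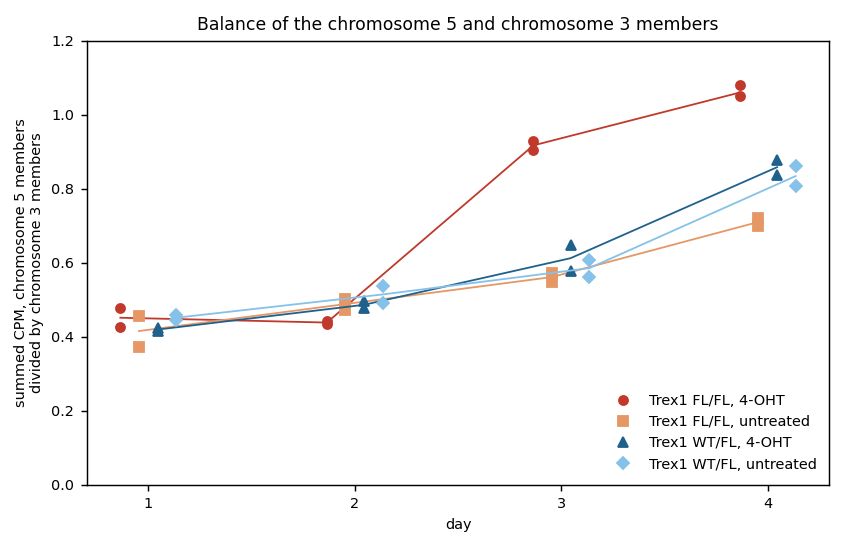
Summed CPM of the 5 chromosome 5 members divided by that of the 5 chromosome 3 members, per library, against the day; lines join the means of 2 libraries. On day 3 the 4-OHT-treated Trex1 FL/FL libraries are at 0.904 and 0.93, while the 6 control libraries lie between 0.548 and 0.647.

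From day 3 to day 4 the control arms lost much of what they had gained. In 4-OHT-treated Trex1 WT/FL cells Gbp2 fell from 150 and 187 CPM to 32.2 and 42.2 CPM (log2 change -2.18 ± 0.18, adjusted p = 1.6e-07), and Gbp4 from 14.3 and 22 to 2.25 and 3.18 CPM (-2.75 ± 0.307, adjusted p = 3.2e-06). By the rule above 5 members fell in this arm, against 0.511% of all genes. In untreated Trex1 WT/FL cells 4 members fell (0.341% of all genes), and in untreated Trex1 FL/FL cells 3 did (0.347%). Gbp2, Gbp4 and Gbp5 were among them in all 3 arms.

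The 4-OHT-treated Trex1 FL/FL cells held their levels better. The median log2 change of the 8 members was -0.50 in these cells, against -1.43, -1.63 and -1.54 in untreated Trex1 FL/FL, 4-OHT-treated Trex1 WT/FL and untreated Trex1 WT/FL cells. None of the 10 members was called lower in this step, where 0.577% of all genes were, and 6 had an unadjusted p below 0.05, as did 27.5% of all genes. Gbp2 went from 269 and 241 CPM on day 3 to 174 and 173 CPM on day 4 (log2 change -0.55 ± 0.17, adjusted p = 0.0349). Gbp7 fell by a log2 change of -0.65 ± 0.121 (adjusted p = 0.000739), below the fold threshold. Gbp9 changed least of the 8, from 155 and 164 to 134 and 145 CPM.

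**Figure D4:**
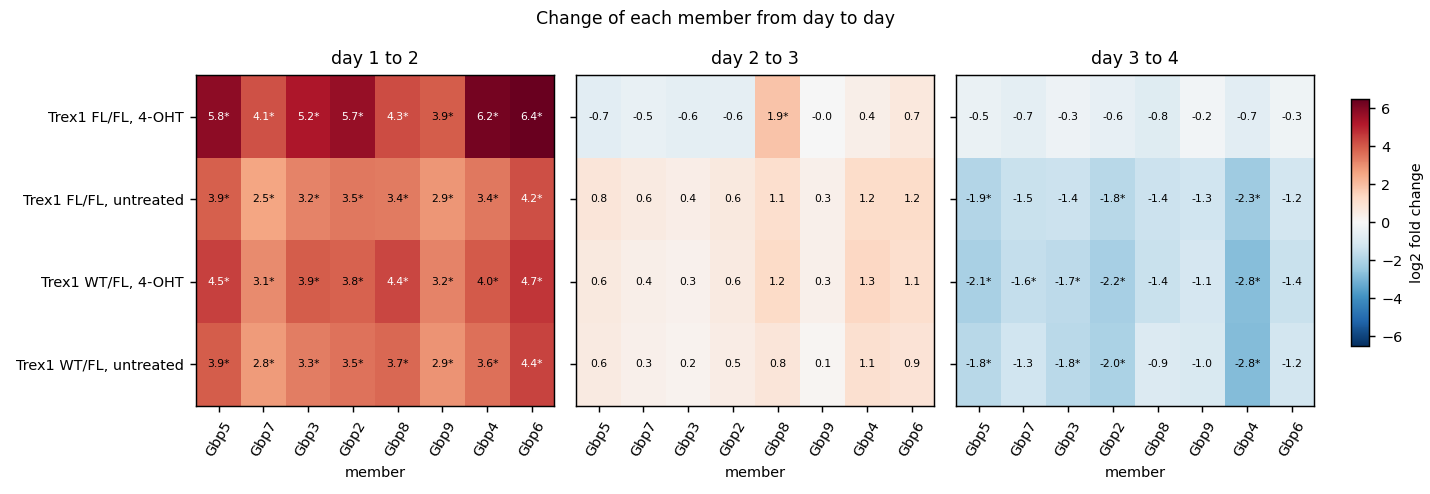
Log2 fold change of the 8 measurable members between successive days in each arm, as numbers and colors (red higher, blue lower on the later day); an asterisk marks called genes. In the middle panel the top row, 4-OHT-treated Trex1 FL/FL cells, has negative values for Gbp5, Gbp7, Gbp3 and Gbp2, where the 3 rows below it are positive.

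The comparison of the genotypes after 4-OHT asks what loss of the second Trex1 allele adds on each day. On day 1 no member was called (0.00655% of all genes were called higher), and none had an unadjusted p below 0.05, where 2.02% of all genes did. For the 8 members the median log2 difference was 0.29, between -0.09 for Gbp2 and 0.84 for Gbp8. Gbp2 was at 7.48 and 7.48 CPM in Trex1 FL/FL and at 7.42 and 8.45 CPM in Trex1 WT/FL cells, so that the groups overlapped. Trex1 transcripts were already at 0 in both Trex1 FL/FL libraries on that day.

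On day 2, 5 of 10 members were called higher in 4-OHT-treated Trex1 FL/FL cells, against 0.498% of all genes. Gbp4 had the largest difference of them, with 38.9 and 37.5 CPM against 7.86 and 6.5 CPM in Trex1 WT/FL cells, 5.32 times the mean (log2 fold change 2.41 ± 0.286, adjusted p = 6.45e-06). Gbp5 was at 122 and 132 against 34.8 and 34 CPM (1.88 ± 0.187, adjusted p = 8.18e-07), and Gbp2 at 378 and 384 against 118 and 105 CPM (1.77 ± 0.174, adjusted p = 1.06e-06). No library of one genotype reached the range of the other for these 3 genes. Gbp3 and Gbp6, both of which are recruited to the vacuole of Toxoplasma gondii, had a log2 difference of 1.72 each.

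Gbp7 (1.27 ± 0.121, adjusted p = 2.66e-07) and Gbp9 (1.06 ± 0.157, adjusted p = 9.43e-05) were higher by less than the fold threshold on day 2. Gbp8 had 328 and 347 against 262 and 267 counts and did not pass (0.75 ± 0.294, adjusted p = 0.115). Gbp10 had 37 and 40 against 5 and 10 counts, and Gbp2b 20 and 5 against 5 and 4. With an adjusted p below 0.05 and no minimum fold change, 7 members were higher, against 7.79% of all genes.

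On day 3 none of the 10 members passed both thresholds, while 0.485% of all genes were called higher. All 10 had a positive difference, and 8 had an adjusted p below 0.05, a limit that 9.9% of all genes passed as higher. The median log2 difference of the 8 members was 0.77. Gbp4 at 1.46 ± 0.271, Gbp8 at 1.36 ± 0.28 and Gbp6 at 1.33 ± 0.19 had the larger values, and Gbp9, also on chromosome 5, was at 0.69 ± 0.156. On chromosome 3 Gbp3 was at 0.84 ± 0.154, Gbp2 at 0.60 ± 0.17, Gbp5 at 0.57 ± 0.181 and Gbp7 at 0.38 ± 0.12. Without the second Trex1 WT/FL library of that day 3 members were called, namely Gbp4, Gbp6 and Gbp8 with log2 differences of 1.80, 1.58 and 1.69, and without the second Trex1 FL/FL library Gbp4 was called with 1.52.

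Day 4 gave the largest differences, with 8 of 10 members called higher against 1.65% of all genes. Gbp4 was at 32.7 and 29.9 CPM in Trex1 FL/FL and at 2.25 and 3.18 CPM in the Trex1 WT/FL libraries, 11.5 times the mean (log2 fold change 3.54 ± 0.311, adjusted p = 4.53e-08). Gbp6 was at 321 and 322 against 49.9 and 63.2 CPM, 5.68 times the mean (2.51 ± 0.199, adjusted p = 2.31e-08). The chromosome 3 members Gbp5, Gbp2 and Gbp3 had log2 differences of 2.24, 2.23 and 2.22, close to one another. In none of these 5 genes did the genotypes overlap.

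Gbp8 was at 19.7 and 18 against 3.54 and 5.75 CPM on day 4 (2.03 ± 0.296, adjusted p = 1.78e-05). Gbp9 was at 134 and 145 against 40.5 and 52.7 CPM (1.58 ± 0.161, adjusted p = 3.5e-07), and without the first Trex1 WT/FL library its log2 difference was 1.40 and no longer called. Gbp10 had 56 and 81 counts against 0 and 6 and was called (adjusted p = 0.00865), but not when any 1 of these 4 libraries was left out, nor with DESeq2. Gbp7, linked to the NADPH oxidase of phagocytes, differed by 1.29 ± 0.124 (adjusted p = 6.83e-08) and so remained below the fold threshold on all 4 days. Gbp2b had 14 and 5 against 3 and 14 counts. With an adjusted p below 0.05 alone, 9 members were higher, against 13.4% of all genes.

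**Figure D5:**
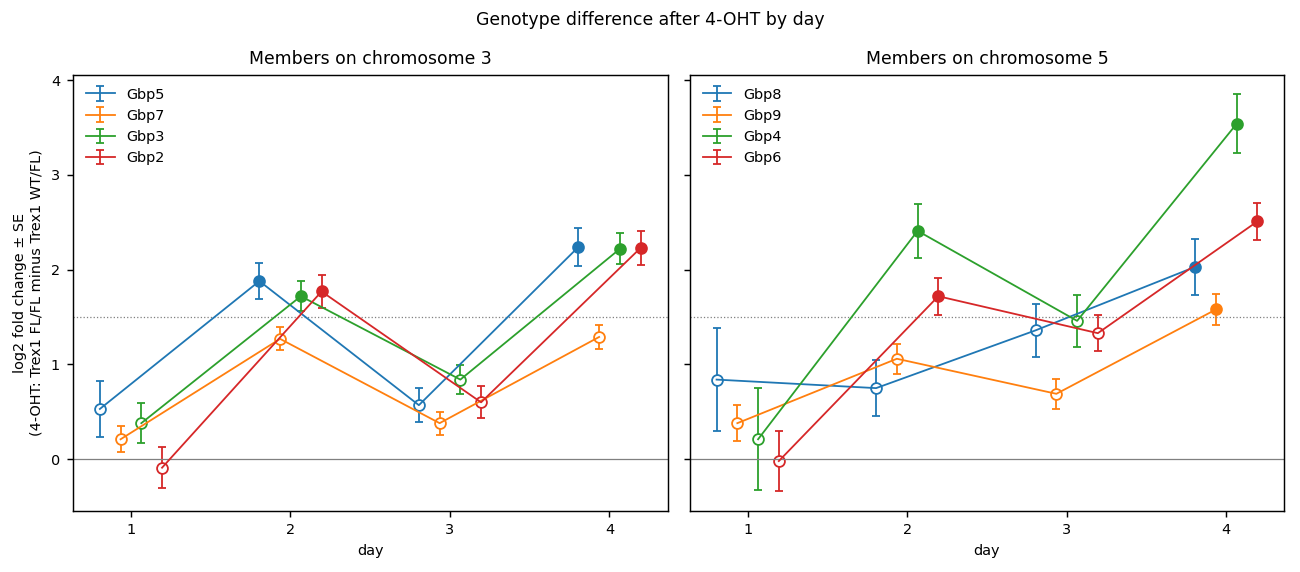
Log2 fold change of 4-OHT-treated Trex1 FL/FL over Trex1 WT/FL cells by day for the 8 measurable members; bars are standard errors, filled points are called genes and the dotted line is the fold threshold of 1.5. All members shown but Gbp8 are lower on day 3 than on days 2 and 4, and Gbp8 goes through 0.75, 1.36 and 2.03 on days 2 to 4.

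The changes of this genotype difference from day to day were tested as well. Between days 1 and 2 it grew for Gbp2 by 1.86 ± 0.276 (adjusted p = 0.000367) and for Gbp6 by 1.74 ± 0.365 (adjusted p = 0.00711), the 2 members called among 0.19% of all genes. Leaving out any 1 of 5 libraries, both of Trex1 FL/FL on day 2, the second of Trex1 FL/FL on day 1 and the second of Trex1 WT/FL on either day, left 1 member called. Between days 2 and 3 no member was called lower, against 0.0459% of all genes, and 5 had an unadjusted p below 0.05 (14.8% of all genes). Here the difference shrank by 1.31 for Gbp5 (adjusted p = 0.00935) and by 0.88 for Gbp7 (adjusted p = 0.00685). Summed over chromosome 3 it changed by -1.04 ± 0.209 (adjusted p = 0.0115) and over chromosome 5 by -0.31 ± 0.245 (adjusted p = 0.618), and the clusters were not tested against each other.

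Between days 3 and 4 the difference grew again for Gbp4 by 2.08 ± 0.402, for Gbp5 by 1.67 ± 0.265 and for Gbp2 by 1.63 ± 0.244. These 3 members were called, against 0.21% of all genes. Without the second Trex1 WT/FL library of day 3 or the first of day 4, 1 member was called. Over this step the level in Trex1 WT/FL cells fell, as given above for Gbp2 and Gbp4, while that in Trex1 FL/FL cells changed less.

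The effect of 4-OHT was also read in Trex1 WT/FL cells, which keep 1 Trex1 allele. Here the agent, Cre activity and the loss of 1 Trex1 allele cannot be told apart. Trex1 fell by 1.16 ± 0.105 on the log2 scale on day 1 and by 0.80 ± 0.0975 on day 4 in these cells (adjusted p = 6.77e-06 and 0.000197). Against untreated cells of this genotype no member was called on day 1 (0% of all genes called), day 2 (0.0131%), day 3 (0.0524%) or day 4 (0.0131%). The median log2 difference of the 8 members was -0.21, 0.25, 0.36 and 0.22 on the 4 days. All 10 members had a positive value on day 3, of which 4 had an unadjusted p below 0.05 (8.4% of all genes), and the highest among the 8 was 0.79 ± 0.287 for Gbp8 (adjusted p = 0.373).

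Without 4-OHT the genotypes did not differ by the rule. No member was called on day 1, day 2 or day 3 (0% of all genes on each) or on day 4 (0.00655%), and the number with an unadjusted p below 0.05 was 0, 0, 0 and 1, beside 7.4, 3.85, 3.07 and 15.8% of all genes. On day 2 Gbp2 was at 96.1 and 78.8 CPM in untreated Trex1 FL/FL and at 99.5 and 90.6 CPM in untreated Trex1 WT/FL cells. The differences of the 8 members ranged from -0.29 to 0.40 over the 4 days.

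Within Trex1 FL/FL cells, 4-OHT raised 6 members on day 2 (0.898% of all genes called higher), 3 on day 3 (0.983%) and 8 on day 4 (1.79%), and none on day 1 (0%, with 0 members and 7% of all genes at an unadjusted p below 0.05). This comparison shares the 4-OHT-treated Trex1 FL/FL libraries with the one between genotypes. The 6 on day 2 were Gbp2, Gbp3, Gbp4, Gbp5, Gbp6 and Gbp7, the last with a log2 difference of 1.65 ± 0.123. All 3 members called on day 3 were of chromosome 5, with log2 differences of 2.04 for Gbp4, 1.88 for Gbp8 and 1.82 for Gbp6.

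The interaction of genotype and 4-OHT, which sets the change in Trex1 FL/FL cells against that in Trex1 WT/FL cells, was called higher for 0 members on day 1 (0% of all genes), 5 on day 2 (0.492%), 0 on day 3 (0.36%) and 7 on day 4 (1.23%). Those of day 2 were Gbp2, Gbp3, Gbp4, Gbp5 and Gbp6, with log2 values of 1.89 to 2.68. On day 4 Gbp8 with 2.28 ± 0.43 and Gbp9 with 1.81 ± 0.229 joined these 5. On day 3, 6 members had an unadjusted p below 0.05 (20.7% of all genes), and without the second 4-OHT-treated Trex1 WT/FL library 2 were called.

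Across the 32 libraries, log2 CPM of the 8 members were closely related. Pearson's r between pairs was 0.993 to 0.996 within chromosome 3 (6 pairs), 0.937 to 0.983 within chromosome 5 (6 pairs) and 0.932 to 0.991 between the clusters (16 pairs). These values describe points that share 4 days and 16 groups, with the step from day 1 to day 2 common to all. The genes outside the family most like Gbp2 were Tnfsf10 (r = 0.991) and Stat2 (r = 0.990), and those most like Gbp6 were Ifi44 and Iigp1 (r = 0.997 each). Tnfsf10 and Trim21 came first for both Gbp3 (r = 0.993 each) and Gbp7 (0.988 and 0.985), Irgm2 and Ifi203 for Gbp9 (0.996 each), and Ifi203 and Gm12250 for Gbp5 (0.989 and 0.988). For Gbp4 they were Samd9l (0.979) and Stat2 (0.978), and for Gbp8 H2-T23 (0.981) and Bst2 (0.980). Gbp10 was most like Gbp11 (0.937) and Gvin3 (0.900), and Gbp2b, at its low counts, like Sil1 (0.895) and Rasgrp1 (0.891).

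Gbp11, which lies next to Gbp6 on chromosome 5 and is not among the 10 members, was on day 1 at 0 or 1 count. In 4-OHT-treated Trex1 FL/FL cells it had 36 and 31 counts on day 2, 299 and 406 on day 3, and at the end 106 and 104, against 11 and 17, 64 and 70, and 6 and 17 counts in Trex1 WT/FL cells. The genotype difference was called on day 3 (log2 fold change 2.49 ± 0.519, adjusted p = 0.00107) and on day 4 (3.73 ± 0.594, adjusted p = 2.52e-05). Like Gbp8 it was called higher in these cells on day 3 than on day 2 (3.16 ± 0.543). The pseudogene Gbp2-ps was at 0 in all 32 libraries. Of the other genes between or directly beside the members, Pdlim5, Gtf2b, Kyat3, Bmpr1b, Gm43802, Gm43302, Zfp951, Abcg3 and Lrrc8b were tested. None was called between the genotypes on any day, where at most 1.65% of all genes were called higher. Abcg3 was lower by less than the fold threshold on day 2 (-0.57, adjusted p = 0.00354) and day 4 (-0.51, adjusted p = 0.00596). The same held for Kyat3 on day 4 (-1.05, adjusted p = 0.0023).

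Other GTPase families with members that IFN raises were set beside the GBPs. The lists were not limited to genes that IFN raises. Of 10 immunity-related GTPases tested, some of which also act at pathogen vacuoles, 0, 2, 0 and 7 were called higher in 4-OHT-treated Trex1 FL/FL cells on days 1 to 4. None was called lower. Their median log2 difference over days 2 to 4 was 1.16, 0.86 and 2.09, against a median over all genes between -0.04 and -0.01. Tgtp2 had 1.88 ± 0.175 on day 2 and 3.24 ± 0.186 on day 4, and Tgtp1 3.60 ± 0.536 on day 4. Of 8 other dynamin relatives, 0, 1, 1 and 5 were called higher and none lower, among them Mx1 with 2.08 on day 2 and 3.27 on day 4, and Gvin3 with 1.70 on day 3 and 3.33 on day 4.

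Of 16 IFN signalling genes tested, 0, 1, 0 and 5 were called higher and none lower, with medians of -0.01, 0.36, 0.22 and 0.38. Ifnb1, which encodes IFN-β, had 18 and 12 counts against 6 and 3 on day 2, and 15 and 20 against 2 and 3 on day 3. On day 4 it had 12 and 14 against 0 and 0 and was called (adjusted p = 0.0062). This call rests on low counts, and untreated Trex1 WT/FL libraries of day 4 held 5 and 0. Its interaction of genotype and 4-OHT on day 4 was not called (adjusted p = 0.038). Usp18, the protease that restrains type I IFN receptor signalling, differed by 1.41, 1.43 and 2.72 on days 2, 3 and 4. Ifng was at 0 in all 32 libraries, which allows up to 3 counts per library by counting error.

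None of 10 inflammasome genes, 10 ubiquitin and autophagy genes and 7 prenylation enzymes tested was called between the genotypes after 4-OHT on any day. Of all genes, 0.00655, 0.498, 0.485 and 1.65% were called higher on days 1 to 4, and lists this short would mostly hold no call at these shares. The median log2 differences of the 3 lists on day 4 were 0.51, 0.10 and -0.12, with 8, 6 and 2 genes above 0. Of the 8 macrophage markers only Fcgr1, an Fc receptor gene that IFN also raises, was called higher, with 1.52 on day 2 and 2.27 on day 4, and the 8 were summed as well. In 4-OHT-treated Trex1 FL/FL cells the sum was 26592 and 28611 CPM on day 2 and 38921 and 39308 CPM on day 3, below the 32009 and 34060 CPM and the 45691 and 48069 CPM of Trex1 WT/FL cells without overlap. By day 4 the groups overlapped, with 29448 and 31423 against 30945 and 31749 CPM. Lyz2 alone held 11134 to 33994 CPM over all libraries and so weighs most in this sum. Over the 8 markers the median log2 difference was 0.00 on day 2 and -0.14 on day 3. On these days 4 and 2 markers were above 0, and none was called lower. The part of these marker levels in the genotype differences was not tested. No T and NK cell, neutrophil and progenitor, dendritic cell or fibroblast marker was called between these groups. The filter left few of them to test, namely 1 of 8, 5 of 6, 2 of 4 and 3 of 4, respectively. No B cell marker passed it.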

How the data were processed

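RNA from 32 BMDM cultures was sequenced by the authors. Per the labels and the study's methods, reads were checked with FastQC 11.9 and quantified with Salmon and tximport on GRCm39, and DESeq2 1.32 was used for testing. The authors deposited estimated counts for each gene, which are whole numbers and were not normalized. Every column was mapped to a group by its sample label, and 0 columns were left over. Replicate numbers follow the accession order and only name a library. Symbols and coordinates came from GENCODE vM39, which names 51048 of 54281 rows, and promoter sequences from RefSeq (GRCm38.p6).

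Here edgeR 4.0.16 was run in R 4.3.3 (quasi-likelihood test with robust estimation, TMM factors, minimum count of 10, 1 mean per group, 16 residual degrees of freedom, Benjamini-Hochberg adjustment over 15257 genes). The thresholds, 0.01 for the adjusted p and 1.5 for the size of the log2 fold change, are those of the study. Errors of fold changes are standard errors of the fit. CPM are TMM-scaled, and log2 CPM use a prior count of 2. In every group the libraries differed by more than sampling noise, with a chi-square per degree of freedom of 9.55 or more over genes. At most 3 counts in all libraries of both groups gave no fold change, and this floor covers counting error only. Steps were tested on simulated counts. Alternatives were other scalings, filters and thresholds, DESeq2 1.42.0, a fit of the 16 treated libraries, sums over a cluster, other lengths, a replicate block and each library left out.

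Named were all 10 members, other Gbp genes, called neighbours, for each list the 2 called genes with the largest difference on day 4, and for each member the 2 most correlated genes. Pdlim5 and the other neighbours, Ifng and Cd4 were named after their values were seen. Members and lists were chosen with earlier results of these data known, and no list was tested as a set.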

Additional observations from a re-analysis of the deposited data

Results flagged for a closer look

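The response to 4-OHT differed between the genotypes by the interaction term for 5 members on day 2, with log2 values of 1.89 for Gbp2, 1.90 for Gbp3, 1.94 for Gbp5, 2.00 for Gbp6 and 2.68 for Gbp4. On day 4 it differed for 7 members, with 1.94 for Gbp2, 1.83 for Gbp3, 2.22 for Gbp5, 2.28 for Gbp8, 1.81 for Gbp9, 3.14 for Gbp4 and 2.52 for Gbp6. All had an adjusted p below 0.01 in edgeR. Of all genes, 0.492% were called higher in this term on day 2 and 1.23% on day 4.

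The genotype difference after 4-OHT changed between days 1 and 2 by 1.86 for Gbp2 and by 1.74 for Gbp6, and between days 3 and 4 by 1.67 for Gbp5, 1.63 for Gbp2 and 2.08 for Gbp4. Among all genes, 0.19% were called higher in the first of these changes and 0.21% in the second. With 2 libraries in each group, no single library could be tested as standing apart.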

How the results depend on the processing

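Of 145 counts of called members recomputed with other scalings, filters, thresholds, DESeq2 or the 16 treated libraries, 135 stayed within 1.5 times the value reported. These include the many comparisons with no member called, where a 0 that stayed 0 counts as unchanged. With no filter on low counts, 1 member was called between the genotypes after 4-OHT on day 3 and 2 in the interaction of that day, where DESeq2 called 1. With the 16 treated libraries, 1 member was called in the change of the genotype difference from day 1 to day 2. With an adjusted p below 0.05 and no minimum fold change, 8 members passed between the genotypes on day 3, 9 in 4-OHT-treated against untreated Trex1 FL/FL cells on day 3, 3 in the interaction on day 3, and 6, 4 and 7 in the changes from day 1 to 2, 2 to 3 and 3 to 4, against 19, 23.5, 8.94, 5.31, 2.72 and 7.08% of all genes in either direction.

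When 1 library was left out, the count of called members ranged from 0 to 3 between the genotypes on day 3, from 0 to 2 in the interaction on day 3, from 1 to 3 in the change from day 1 to 2 and from 1 to 4 in that from day 3 to 4. The summed chromosome 3 members had a log2 difference of 1.5 to 1.74 on day 2 and those of chromosome 5 of 1.32 to 1.62, on either side of the fold threshold. On day 1 the log2 difference ranged from -0.18 to 0.01 for Gbp2, from -1.45 to 0.97 for Gbp4 and from -0.27 to 0.28 for Gbp6, and on day 4 from -0.18 to 2.36 for Gbp2b, with both signs in each. A lone library was then assumed to vary like the other groups. The cause of these changes was not tested.

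Summing Gbp6, Gbp10 and Gm43302, an alternative chosen after seeing the data, gave log2 differences of 1.72 on day 2 and 2.51 on day 4, as for Gbp6 alone. Sums over a cluster give no count of members. Counts of Gbp2b and of Gbp10 on days 1 and 2 limit what could be detected. The labels carry no replicate numbers, but within each genotype the title numbers form separate runs of untreated and of 4-OHT-treated libraries. The lower and the higher number of each group were tried as 2 replicate blocks, also chosen after seeing the data. Between groups of a genotype, the differences of the blocks correlated over genes by -0.01 to 0.14 in Trex1 FL/FL cells. In Trex1 WT/FL cells they correlated by 0.02 to 0.12. Values were above 0.1 in 5 of 28 pairs each, so that the blocks were not taken as pairs. With the replicate block, 24 of 27 comparisons within a genotype or of its changes called the same members. Gbp6 was lost in the change from day 1 to 2, which left 1 member, while Gbp4 was gained in the interaction on day 3 and Gbp2b from day 2 to 3 in untreated Trex1 FL/FL cells, 1 each. Differences between the genotypes of a day lie between the blocks of the genotypes and were given no such fit. Differences between 4-OHT-treated and untreated cells lie between runs of title numbers too, and what the runs stand for was not given.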
